A study of Homo sapiens with 12 samples.

Results

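The forkhead (FOX), SOX, GATA and Krüppel-like (KLF) transcription factors are families of DNA-binding proteins, and all genes whose symbol carries one of these family names with a number were taken from the count table: 88 of 59498 gene identifiers, of which 45 are FOX, 19 SOX, 6 GATA and 18 KLF genes. Their RNA was counted in SKOV-3, an established cell line from a human epithelial ovarian adenocarcinoma, in 4 groups of 3 libraries. Parental SKOV-3 cells are labelled wild type with no drug resistance, and a second group is the same line in which KDM5A and KDM5B were both knocked out. The resistant group is SKOV-3 CDDP, a derivative resistant to the platinum drug cisplatin, without the knockout, and the last group is SKOV-3 CDDP with the double knockout. No drug treatment of the cultures is named in the labels, so the groups differ by line and genotype. Each background is 1 line, and the labels name neither the number of knockout clones nor separate cultures behind the libraries. The p-values therefore measure only library-to-library spread, which may be technical.

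Factors of these families read short DNA motifs and set cell identity. FOXA and GATA proteins are known as pioneer factors that can bind closed chromatin in endoderm, SOX proteins bend DNA and often bind beside POU or PAX partners, and KLF proteins bind GC-rich or CACCC sequences through zinc fingers together with the related SP proteins. FOXO proteins are kept out of the nucleus when AKT or SGK kinases phosphorylate them. KDM5A and KDM5B remove methyl groups from lysine 4 of histone H3, a mark of active and CpG-rich promoters, and the series title ties these enzymes to cisplatin resistance.

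Total counts ran from 15659352 to 19706754 per library, and mitochondrial genes took 5.34% to 16.3% of them. The KDM5A transcript was lower in the knockout libraries, at 15.6 to 22.5 CPM (read counts scaled to a common effective library size) against 30.9 to 41.5 CPM in parental cells and at 12.0 to 17.6 against 33.4 to 39.9 CPM in resistant cells (mean difference -20.1 CPM, two-sided exact permutation test within backgrounds, p = 0.005, the smallest it can give). KDM5B transcript levels overlapped between knockout and control libraries (mean difference -12.0 CPM, exact permutation p = 0.46). A transcript can persist when the protein is lost, so the KDM5B counts do not check that label. The labelled cell type was read from 9 epithelial ovarian carcinoma markers, of which 7 reached 1 CPM in parental, 8 in parental knockout, 7 in resistant and 8 in resistant knockout cells. The summed level of 9 fibroblast genes, mostly COL1A1 in the resistant groups, differed between the lines: it was 1.97 to 8.80 CPM in parental, 2.56 to 28.7 in parental knockout, 350 to 960 in resistant and 2527 to 4470 CPM in resistant knockout libraries, and 1, 3, 5 and 6 of the 9 reached 1 CPM. Within that list DCN was lower in resistant than in parental cells (means of 0.0748 and 2.46 CPM), while FAP (0.218 and 0.227 CPM) and THY1 (0.0398 and 0.0518 CPM) differed little. In bulk RNA, fewer cells of a type and less RNA per cell cannot be told apart. The part of these marker genes in the values below was not tested.

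Of the 88 factors, 56 passed the filter on low counts and were tested: 28 FOX, 10 SOX, 4 GATA and 14 KLF genes. The other 32 held at most a mean of 0.604 CPM in any group, and 8 of these (FOXB2, FOXI1, FOXI2, FOXL3, FOXR2, GATA5, KLF18 and SOX3) had 0 reads in all 12 libraries. A mean of at least 1 CPM was reached by 55 factors in some group and by 42 in every group, and 26 held at least 10 CPM in every group. Levels of different genes are compared here as CPM per kilobase of exon, averaged over the 4 groups. On that scale KLF5 (23.6), KLF16 (18.4) and KLF10 (13.6) were the most abundant KLF genes, SOX12 (16.1), SOX4 (9.24) and SOX17 (8.67) the most abundant SOX genes, and FOXO1 (15.8), FOXK2 (11.0) and FOXM1 (10.8) the most abundant FOX genes. GATA genes were scarcer, with GATA6 at 2.47, GATA4 at 1.68 and GATA2 at 1.39 CPM per kilobase. All 5 SOXB genes, among them the stem cell factor SOX2, stayed below the filter.

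**Figure D1:**
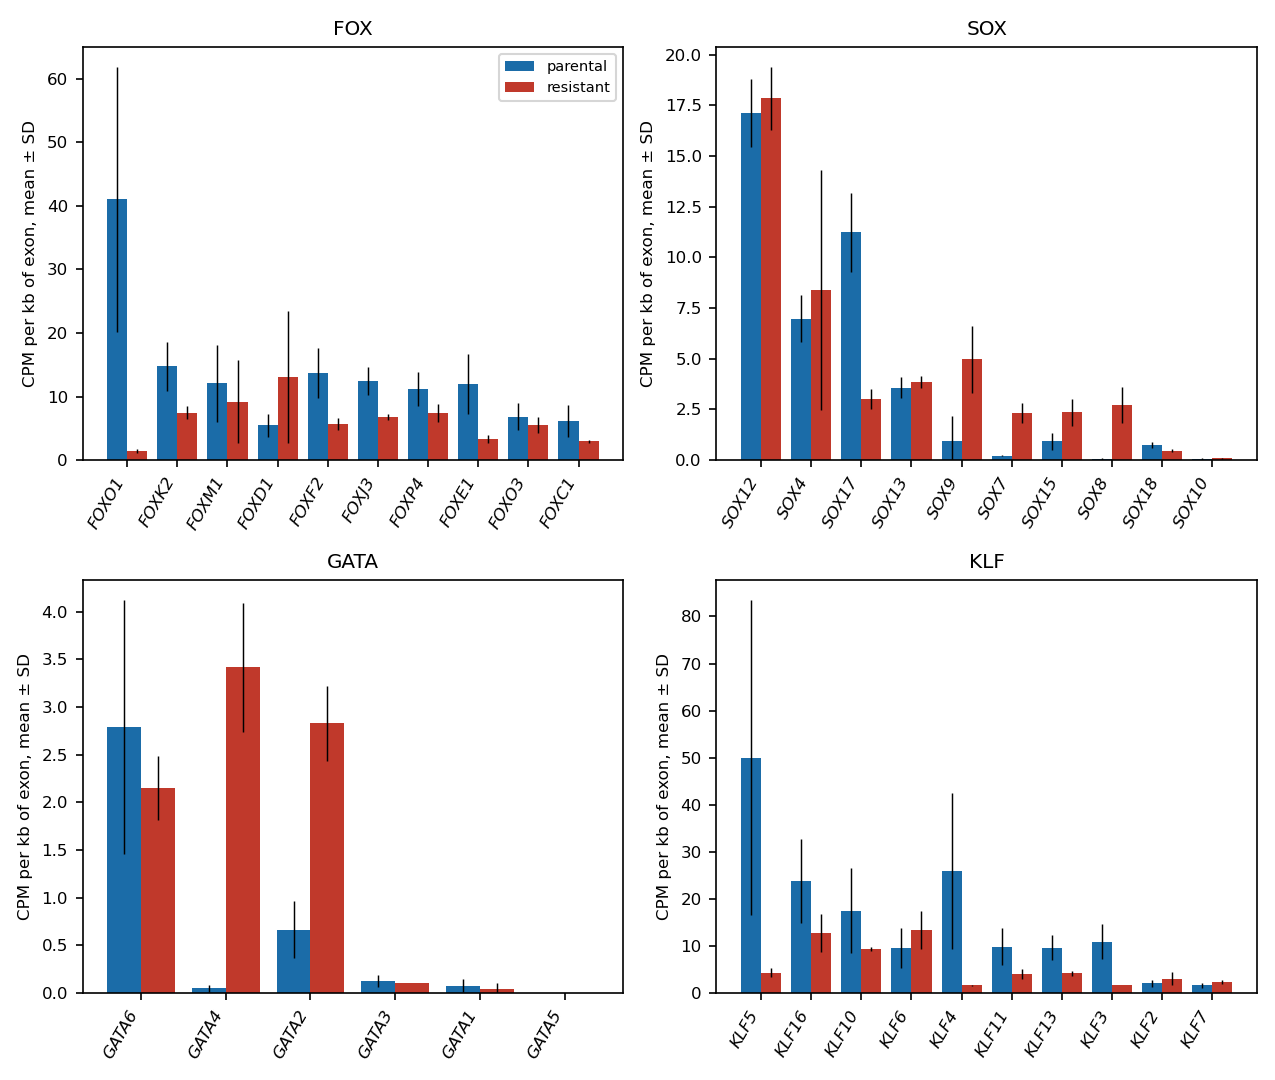
Bars give the mean level in CPM per kilobase of exon (error bars, SD of 3 libraries) for the most abundant FOX, SOX, GATA and KLF genes in parental (blue) and resistant (red) libraries, 1 panel per family with its own axis from 0. FOXO1, KLF5 and KLF4 have tall parental and short resistant bars, SOX12 has bars of similar height, and GATA4 and GATA2 have short parental and tall resistant bars.

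Promoters of 7 of the factors described below are printed first. Among these windows that of KLF5 differs from the rest in CpG and GC-box content. Sequences are RefSeq windows on GRCh38.p14 from 250 bases before to 50 bases after the annotated start, written 5′ to 3′ along the gene, and capitals mark every GC box (GGGCGG or its reverse complement CCGCCC), the class of element that SP and KLF proteins are known to bind. FOXQ1 lies at chr6:1311848-1312147, plus strand, FOXO1 at chr13:40666592-40666891, minus strand, KLF4 at chr9:107489720-107490019, minus strand, KLF13 at chr15:31326585-31326884, plus strand and KLF5 at chr13:73054726-73055025, plus strand. GATA2 at chr3:128493152-128493451, minus strand and FOXA3 at chr19:45864076-45864375, plus strand stand for the factors that were higher in resistant cells.
FOXQ1: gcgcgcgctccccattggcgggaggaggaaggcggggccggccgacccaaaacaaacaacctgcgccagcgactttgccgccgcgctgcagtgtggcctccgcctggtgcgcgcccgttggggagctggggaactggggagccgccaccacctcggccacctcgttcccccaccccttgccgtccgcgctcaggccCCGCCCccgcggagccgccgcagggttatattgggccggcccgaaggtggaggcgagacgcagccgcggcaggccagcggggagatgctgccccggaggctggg
FOXO1: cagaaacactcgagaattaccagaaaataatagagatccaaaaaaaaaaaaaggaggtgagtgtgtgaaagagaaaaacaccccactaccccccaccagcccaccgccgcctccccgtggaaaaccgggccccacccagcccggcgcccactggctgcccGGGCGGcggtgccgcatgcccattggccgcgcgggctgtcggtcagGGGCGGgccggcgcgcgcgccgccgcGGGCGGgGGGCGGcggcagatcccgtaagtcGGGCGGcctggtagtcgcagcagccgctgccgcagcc
KLF4: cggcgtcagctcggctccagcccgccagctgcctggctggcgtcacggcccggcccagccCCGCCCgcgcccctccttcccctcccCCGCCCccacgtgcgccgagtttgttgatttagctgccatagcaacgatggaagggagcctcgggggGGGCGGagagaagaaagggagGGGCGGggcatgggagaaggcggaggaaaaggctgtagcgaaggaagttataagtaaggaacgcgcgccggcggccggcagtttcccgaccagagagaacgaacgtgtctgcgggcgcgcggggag
KLF13: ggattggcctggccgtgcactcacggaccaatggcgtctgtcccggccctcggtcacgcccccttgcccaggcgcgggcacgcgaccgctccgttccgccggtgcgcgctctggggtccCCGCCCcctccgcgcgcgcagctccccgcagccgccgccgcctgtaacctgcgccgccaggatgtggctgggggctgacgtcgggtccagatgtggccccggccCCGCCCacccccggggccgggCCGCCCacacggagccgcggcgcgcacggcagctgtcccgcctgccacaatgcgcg
KLF5: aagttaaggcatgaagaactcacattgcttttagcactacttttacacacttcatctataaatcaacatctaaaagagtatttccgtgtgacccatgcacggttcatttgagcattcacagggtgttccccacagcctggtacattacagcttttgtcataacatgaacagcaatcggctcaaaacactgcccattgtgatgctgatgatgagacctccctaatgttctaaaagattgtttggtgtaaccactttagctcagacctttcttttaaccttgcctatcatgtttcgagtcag
GATA2: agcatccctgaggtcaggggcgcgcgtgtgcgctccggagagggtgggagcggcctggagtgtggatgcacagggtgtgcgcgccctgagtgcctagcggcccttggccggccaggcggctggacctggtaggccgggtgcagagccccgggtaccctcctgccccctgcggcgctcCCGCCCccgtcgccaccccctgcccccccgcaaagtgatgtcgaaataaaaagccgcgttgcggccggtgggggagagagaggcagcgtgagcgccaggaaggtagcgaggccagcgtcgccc
FOXA3: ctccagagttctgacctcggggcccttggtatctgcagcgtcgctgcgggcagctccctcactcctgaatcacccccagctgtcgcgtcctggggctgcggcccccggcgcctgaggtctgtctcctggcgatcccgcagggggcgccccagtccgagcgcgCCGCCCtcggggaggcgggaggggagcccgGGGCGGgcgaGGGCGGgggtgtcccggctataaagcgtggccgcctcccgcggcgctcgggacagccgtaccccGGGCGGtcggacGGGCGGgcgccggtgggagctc

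The 300-base windows of KLF13, FOXA3, FOXQ1, FOXO1, KLF4 and GATA2 held 43, 37, 35, 33, 33 and 29 CpG dinucleotides, with 3, 5, 1, 5, 4 and 1 GC boxes. The KLF5 window differed, with 4 CpG and no GC box. Each gene was read at only 1 annotated start, so the content at other starts, of KLF5 or of the other genes, was not examined. A window was found for 64 of the 88 factors among 27305 promoters in the table. A GC box was present in 45 of these 64 (70.3%), against 44.6% of all promoters, and the median CpG number was 26.5 against 14. Both sets include genes that were not tested here, and the GC-box share over all tested genes was not computed. The forkhead letters TGTTTAC (either strand) were in 2 of the 64 windows (3.13%, against 3.41% of all), the GATA letters AGATAA in 6 (9.38%, against 10.5%), the SOX letters ACAAAG in 6 (9.38%, against 16%) and the CACCC letters CCACACCC in 0 (against 3.22%). These are letter matches in a short window and not binding sites. By response, the median CpG number was 33 in the 14 windows of factors lower in resistant cells, 37 in the 5 of those higher, 29 in the 23 of tested factors that did not pass, and 26 over all genes tested.

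Most calls among these factors came from resistant against parental cells. Of the 56 tested, 28 (50%) passed edgeR's quasi-likelihood test at an adjusted p of 0.05, beside 28.0% of all 17947 genes tested. A total of 16 were lower (12.8% of all genes) and 12 higher (15.2%) in resistant cells, and the median log2 difference was -0.26 against 0.02 over all genes. The libraries of the 2 groups did not overlap for 33 of the 56 factors (45.5% of all genes). Library 2 of the parental group weighs on the count: without it 16 of 60 factors tested passed, 7 higher and 9 lower, beside 16.3% of all genes.

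By family, 6 of 14 KLF genes were lower and 0 higher (42.9% called, median log2 difference -0.90). An unadjusted p below 0.05 was found for these 6 KLF genes and for no other. EdgeR with median-of-ratios factors or with library size alone gave the same counts, but KLF11 and KLF12 lost their calls without parental library 2. Among knockout libraries 3 of 14 KLF genes were lower and 0 higher (21.4% called, beside 23.9% of all genes). In resistant against parental cells 3 of 10 SOX genes were higher and 1 lower, and 2 of 4 GATA genes were higher and 0 lower. Among FOX genes 7 of 28 were higher and 9 lower. Of all genes tested 15.2% were higher and 12.8% lower in this comparison, and the SOX and GATA shares rest on few genes. The summed KLF level was 501 to 1057 CPM in parental and 274 to 349 CPM in resistant libraries, with no overlap (means of 746 and 301 CPM). KLF2, KLF6, KLF7 and KLF9 had higher means in resistant cells. Much of the fall was KLF5 (means of 195 and 17.1 CPM) and KLF4 (94.8 and 6.18 CPM). The summed GATA level went the other way, from 7.56 to 18.6 CPM in parental libraries to 34.2 to 39.5 CPM in resistant ones. The summed FOX level was 842 to 1307 CPM in parental and 496 to 644 CPM in resistant libraries, without overlap, although FOX calls went both ways. The means of this sum were 1007 and 572 CPM, and FOXO1 alone held means of 256 and 8.61 CPM, so much of the fall was this gene. Summed SOX levels overlapped, at 168 to 194 and 178 to 247 CPM.

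**Figure D2:**
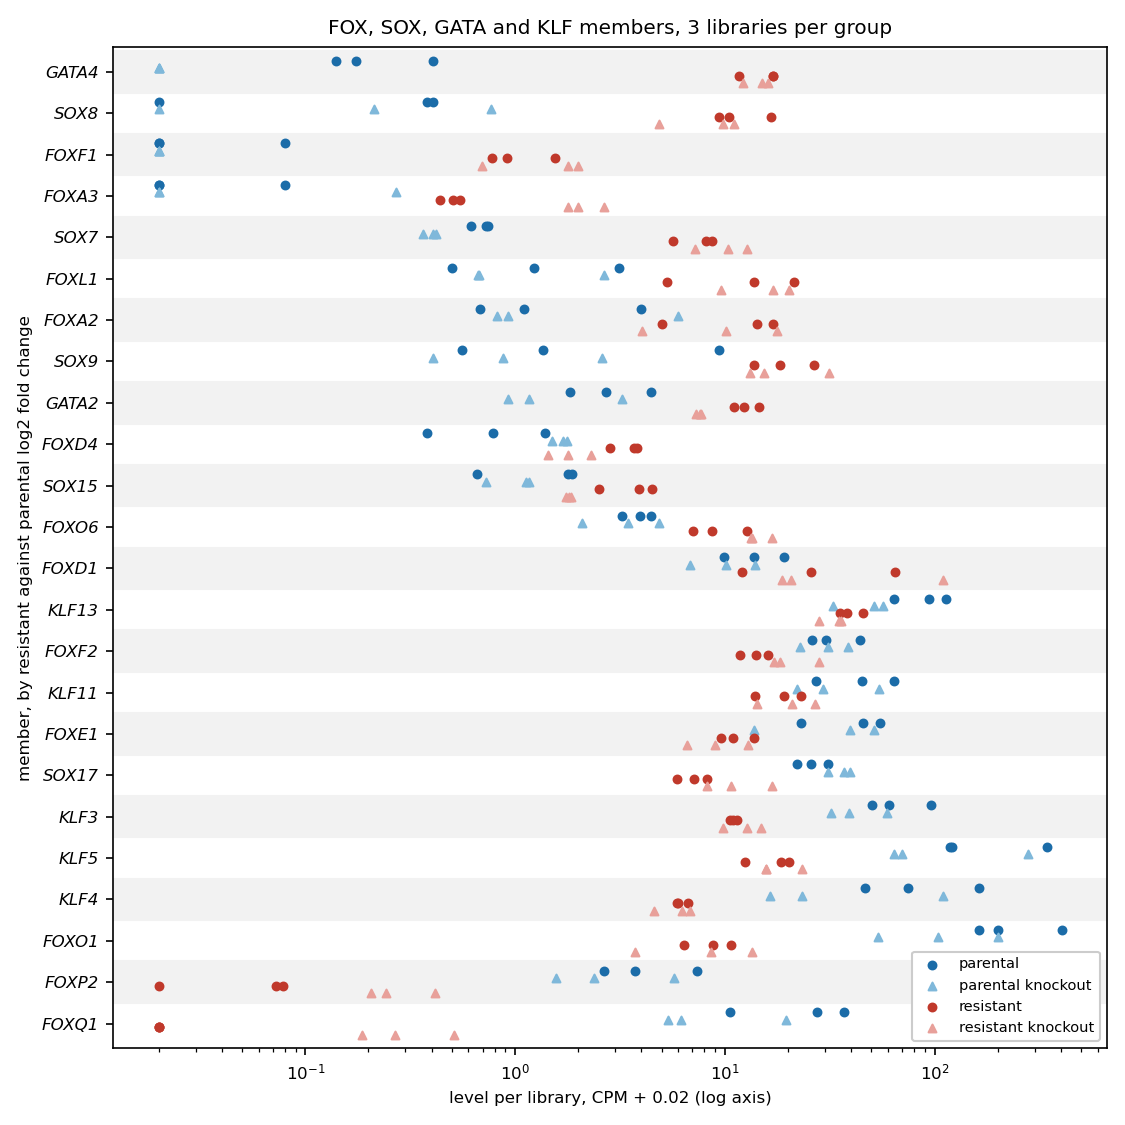
Each row is 1 factor and each mark 1 library, on a log axis of CPM + 0.02 (a library with 0 reads sits at the left end), for the 24 factors whose level is given library by library. Marks are parental (dark blue circles), parental knockout (light blue triangles), resistant (red circles) and resistant knockout (light red triangles), ordered by the log2 difference between resistant and parental cells; in the top rows red marks lie to the right of blue ones and in the bottom rows to the left.

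GATA4 (ENSG00000136574, GRCh38 chromosome 8, 11676959 to 11760002), a factor of heart, gonad and endoderm development, was nearly silent in parental cells and present in resistant ones. It held 0.119, 0.384 and 0.155 CPM in the parental libraries, which is 11 reads in all, and 16.9, 16.9 and 11.7 CPM in the resistant libraries. No parental library came near a resistant one, and the log2 difference was 6.09 ± 0.49 (SE, adjusted p = 1.38e-05). In parental knockout cells GATA4 had 0 reads, and resistant knockout libraries held 16, 12.2 and 15 CPM, at least 255-fold more (adjusted p = 7.22e-06).

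GATA2, a factor of blood stem cells, held 4.42, 2.69 and 1.81 CPM in parental and 11, 12.3 and 14.5 CPM in resistant libraries. Every resistant library was above every parental one (log2 difference 2.08 ± 0.48, adjusted p = 0.0065). Among knockout libraries the values were 3.21, 0.904 and 1.15 against 7.28, 7.64 and 7.6 CPM, again without overlap (log2 difference 2.08 ± 0.48, adjusted p = 0.00811). GATA6, the most abundant family member per length, did not pass (11.0 ± 5.26 CPM, SD, n = 3, in parental and 8.48 ± 1.32 in resistant cells, adjusted p = 0.603).

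Of the 2 SOXE factors tested, a group known from cartilage, testis and neural crest, SOX8 was higher in resistant cells and SOX9 did not pass. SOX8 held 0.358, 0.384 and 0 CPM in parental and 16.6, 9.32 and 10.4 CPM in resistant libraries. The ranges were far apart (log2 difference 5.62 ± 0.97, adjusted p = 0.00128; among knockouts 4.68 ± 0.92, adjusted p = 0.00336). SOX9 held 0.538, 1.34 and 9.32 CPM against 13.8, 18.3 and 26.6 CPM (adjusted p = 0.0541). Its parental library 3 stood well above the other two. Among knockout libraries SOX9 held 0.852, 0.387 and 2.59 against 15.4, 13.2 and 31.3 CPM and passed (log2 difference 3.96 ± 0.93, adjusted p = 0.00894). The summed level of 5 neural marker genes was also higher in resistant cells, at 29.8 to 86.2 CPM in parental, 31.6 to 122.8 in parental knockout, 102 to 178 in resistant and 142 to 244 CPM in resistant knockout libraries, and 2, 3, 2 and 2 of the 5 reached 1 CPM. Most of it was TUBB3 (means of 50.5 CPM in parental and 144 CPM in resistant cells), NES reached a mean of 52.7 CPM in resistant knockout cells, and STMN2 was at 0 reads in both resistant groups. The part of these genes was not tested.

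SOXF factors, known from endothelium and endoderm, went in opposite directions within their group. SOX17, which is also known as a factor of the Müllerian tract and of ovarian carcinoma, held 25.7, 31.2 and 22.1 CPM in parental and 5.9, 8.16 and 7.1 CPM in resistant libraries. It was lower in every resistant library (log2 difference -1.90 ± 0.30, adjusted p = 0.000743). SOX7 held 0.597, 0.705 and 0.725 CPM in parental and 5.66, 8.65 and 8.09 CPM in resistant libraries. Here all resistant libraries were above (log2 difference 3.45 ± 0.38, adjusted p = 5.22e-05). Both kept their direction among knockout libraries, SOX17 at 31.2, 37.2 and 39.4 against 10.7, 8.2 and 16.9 CPM (log2 difference -1.59, adjusted p = 0.00254) and SOX7 at 0.401, 0.387 and 0.345 against 10.4, 7.2 and 12.8 CPM (log2 difference 4.72, adjusted p = 1.31e-05). SOX18 did not pass, at 1.35 ± 0.277 and 0.861 ± 0.152 CPM. Of 8 endothelial marker genes 0 reached 1 CPM in parental and 1 in resistant cells, with EMCN, ERG and TIE1 at 0 reads in parental and TEK at 0 in resistant libraries. The 1 was TIE1, at 0.841 to 12.7 CPM in resistant and 1.42 to 16.1 CPM in resistant knockout libraries. The summed level of the list was 0.717 to 3.00 CPM in parental, 1.70 to 2.82 in parental knockout, 1.63 to 14.9 in resistant and 3.34 to 18 CPM in resistant knockout libraries. The part of these genes was not tested. The abundant SOXC gene SOX12 stood at 79.2 ± 7.75 CPM in parental and 82.7 ± 7.15 in resistant cells (log2 difference 0.06, adjusted p = 0.867). SOX15 held 1.85, 0.64 and 1.76 against 4.49, 2.5 and 3.89 CPM and passed narrowly (log2 difference 1.35 ± 0.46, adjusted p = 0.0447), a call lost in 13 of 21 alternative settings.

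Decreases in abundant genes were found among the KLF factors. KLF4, known from epithelial barriers and from reprogramming, held 74.7, 163 and 46.8 CPM in parental and 5.9, 6.64 and 5.99 CPM in resistant libraries. Its resistant libraries were nearly equal and all far below the parental ones, which spread widely (log2 difference -3.94 ± 0.68, adjusted p = 0.00126). KLF5, a factor of proliferating epithelium, held 118, 345 and 121 against 12.5, 18.5 and 20.2 CPM, with no overlap (log2 difference -3.51 ± 0.61, adjusted p = 0.00128). KLF3, which represses through CtBP, held 60.5, 96 and 50.5 against 10.9, 10.5 and 11.4 CPM, also apart (log2 difference -2.65 ± 0.32, adjusted p = 0.000104). Among the epithelial markers, EPCAM held 28.8 to 42.9 CPM in parental and 1.52 to 6.71 CPM in resistant libraries, KRT7 went from a mean of 22.4 to 4.24 CPM, and KRT8 went the other way, from 224 to 1376 CPM. The summed level of the 9 epithelial markers was 2353 to 10993 CPM in parental and 2704 to 3287 CPM in resistant libraries. In parental cells most of this sum was ERBB2, which went from a mean of 4872 to 982 CPM. KRT18 rose like KRT8, from a mean of 108 to 499 CPM. PAX8 (172 to 419 and 171 to 300 CPM) and CDH1 (1.67 to 2.21 and 1.63 to 4.49 CPM) overlapped between parental and resistant libraries. WT1 and MUC16 held means under 1 CPM in both groups. The part of these genes was not tested.

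Smaller decreases were found in KLF11 and KLF13, which act through SIN3A, and in KLF12, which like KLF3 binds CtBP. KLF11 held 45, 63.7 and 27.1 CPM in parental and 19.1, 13.9 and 23.2 CPM in resistant libraries (log2 difference -1.27 ± 0.40, adjusted p = 0.0316). KLF13 held 63.9, 113 and 94.5 against 45.8, 35.4 and 38.3 CPM (log2 difference -1.18 ± 0.28, adjusted p = 0.00745). In both, the lowest parental library was above the highest resistant one. KLF12 fell by 0.99 ± 0.30 on the log2 scale (adjusted p = 0.0268). KLF16 (log2 difference -0.90, adjusted p = 0.126) and KLF10 (-0.91, adjusted p = 0.144) were lower by a similar amount with wider spread and did not pass, and KLF6 stood at 59.1 ± 26 and 82.1 ± 24.4 CPM.

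Forkhead factors held the most extreme decreases. FOXQ1 (ENSG00000164379, chromosome 6, 1312440 to 1314748), a factor associated with epithelial plasticity in carcinomas, held 27.6, 37.1 and 10.6 CPM in parental libraries, 1245 reads in all, and 0 reads in all 3 resistant libraries. Against 3 counts over the group this is at least 422-fold lower (adjusted p = 6.52e-05). FOXP2, a repressor best known from brain development, held 2.63, 7.37 and 3.73 CPM against 0.0584, 0 and 0.0526 CPM, 2 reads in all. The ratio of parental to resistant was 118 (95% exact counting interval 32.2 to 976, which covers counting error only).

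FOXO1 (ENSG00000150907, chromosome 13, 40469953 to 40666597), the FOXO factor that AKT restrains, was the most abundant FOX gene in parental cells per length. It held 201, 404 and 162 CPM in parental and 8.76, 10.7 and 6.36 CPM in resistant libraries. Every resistant library was far below every parental one, and the log2 difference was -4.89 ± 0.61 (adjusted p = 0.000133). FOXO6, a FOXO gene known mainly from brain, moved the opposite way, with 3.94, 3.2 and 4.45 CPM in parental and 7.06, 12.8 and 8.67 CPM in resistant libraries (log2 difference 1.30 ± 0.37, adjusted p = 0.0196). FOXO3 (52.7 ± 16.4 and 42.9 ± 9.56 CPM) and FOXO4 (16 ± 1.15 and 20.4 ± 8.15 CPM) did not pass.

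Among FOX genes of early development, 4 of 11 tested were lower and 3 higher (63.6% called). Of all genes tested 12.8% were lower and 15.2% higher, 28.0% in either direction. FOXE1, a thyroid factor, held 23.2, 55 and 45.8 CPM against 13.7, 9.57 and 10.9 CPM (log2 difference -1.86 ± 0.46, adjusted p = 0.0104). FOXF2, a factor of gut and lung mesenchyme, held 30.3, 44.3 and 25.9 against 11.7, 14.1 and 16.1 CPM (log2 difference -1.26 ± 0.31, adjusted p = 0.00911). Both were lower in each resistant library than in any parental one. FOXC1 fell by 1.05 ± 0.33 on the log2 scale (adjusted p = 0.0309). FOXF1, the close relative of FOXF2, rose from 1 read in the 3 parental libraries to 0.759, 1.52 and 0.894 CPM (ratio 54.1, 95% exact counting interval 9.31 to 2170, adjusted p = 0.00243). FOXL1, known from gut mesenchyme, held 0.478, 1.22 and 3.11 against 5.31, 13.7 and 21.4 CPM (log2 difference 3.06 ± 0.74, adjusted p = 0.00914), and its 2 ranges were separate although each was wide. FOXD4 held 1.37, 0.769 and 0.362 against 3.79, 2.8 and 3.68 CPM (log2 difference 2.04 ± 0.48, adjusted p = 0.00783), but it has near-identical copies in the genome that may share its reads.

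FOXA genes, the endoderm pioneers, held means of at most 2.44 CPM in parental cells. FOXA2 held 0.657, 1.09 and 3.99 CPM in parental and 14.2, 17 and 4.99 CPM in resistant libraries (log2 difference 2.64 ± 0.89, adjusted p = 0.042). The closest libraries of the groups, both numbered 3, nearly touched, and the call was lost in 5 of 21 alternatives. FOXA3 rose from 1 parental read to 0.525, 0.487 and 0.42 CPM (ratio 24.6, 95% exact counting interval 4.02 to 1009, adjusted p = 0.016), still under 1 CPM. FOXA1 did not pass (2.44 ± 1.26 and 2.03 ± 0.717 CPM). Of the other FOX genes that passed, FOXP1 rose (log2 difference 1.10), and FOXK2, FOXJ3 and FOXK1 fell by 0.98, 0.89 and 0.62. FOXM1, the forkhead factor of mitotic gene expression, did not pass, with 35.9, 48.4 and 92.9 CPM in parental and 13.3, 44.2 and 77.8 CPM in resistant libraries. In both groups its highest level was in library 3.

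The same comparison was made between the 2 knockout groups, which share no library with the groups above. It is not an independent repeat, since parental and parental knockout libraries of the same number deviated together (correlations of 0.658 to 0.779 across genes). Of the 56 factors 19 (33.9%) passed, 10 higher (13.6% of all genes) and 9 lower (10.2%) in resistant cells, beside 23.9% of all genes in either direction. A total of 17 factors passed in both comparisons in the same direction, 8 higher and 9 lower, beside 18.5% of all genes, and 0 passed in opposite directions. Of the 28 that passed without the knockout, 27 had the same sign among knockouts; the exception was FOXC1, with a log2 difference of 0.02. The 8 higher in both were GATA4, SOX8, FOXF1, FOXA3, SOX7, FOXL1, GATA2 and FOXO6, and the 9 lower in both were FOXQ1, FOXP2, FOXO1, KLF4, KLF5, KLF3, SOX17, FOXE1 and FOXJ3. SOX9 and FOXD1 passed among knockouts and not without the knockout, and the test of the difference between the 2 comparisons called neither. FOXD1 held 10.1, 13.9 and 6.78 against 18.8, 20.6 and 110 CPM (adjusted p = 0.0349), and without resistant knockout library 3 the log2 difference fell from 2.28 to 0.94 and did not pass.

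**Figure D3:**
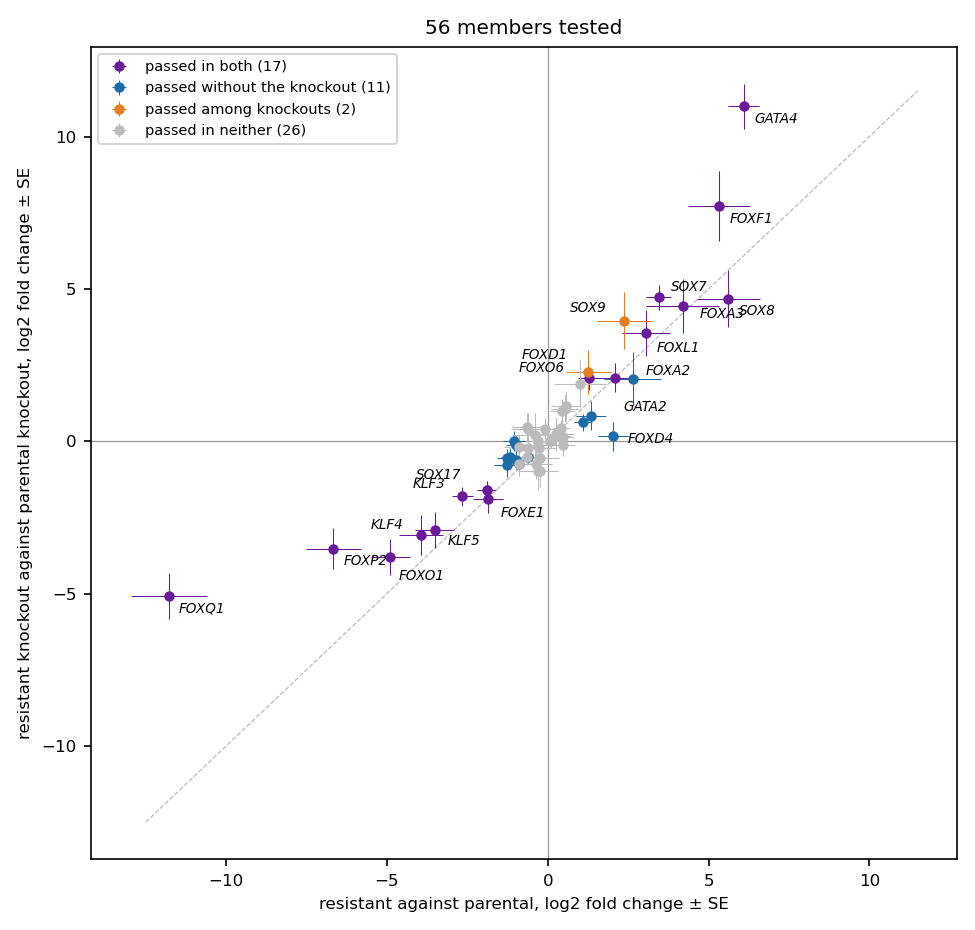
Each point is 1 of the 56 factors tested, with the log2 difference (± SE) between resistant and parental cells on the horizontal axis and between the 2 knockout groups on the vertical axis; the dashed line marks equal values, and colour shows in which comparison the factor passed. Points of the 17 factors that passed in both lie at the lower left and upper right. Fitted values of FOXQ1 on the horizontal axis and of GATA4 and FOXF1 on the vertical axis rest on a group with 0 reads and depend on the prior count, so their positions are not measured sizes.

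Levels among knockout libraries were as follows for the 5 factors with the largest decreases between resistant and parental cells. FOXO1 held 104, 202 and 53.5 CPM in parental knockout and 13.4, 8.58 and 3.71 CPM in resistant knockout libraries (log2 difference -3.80, adjusted p = 0.000702). KLF4 held 23.4, 109 and 16.3 against 6.83, 4.6 and 6.24 CPM (log2 difference -3.07, adjusted p = 0.0053). The groups stayed apart for both genes, with parental knockout library 2 highest. FOXP2 held 2.35, 5.68 and 1.55 CPM against 0.396, 0.222 and 0.185 CPM, 15 reads in all (log2 difference -3.52, adjusted p = 0.00289). FOXQ1 held 6.16, 19.6 and 5.34 CPM against 0.247, 0.166 and 0.494 CPM, 16 reads in all (log2 difference -5.08, adjusted p = 0.000931). KLF5 held 70, 278 and 64 against 15.6, 15.6 and 23.3 CPM (log2 difference -2.92, adjusted p = 0.00406).

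With the filter on low counts used here and no replicate number in the model, edgeR called none of these factors for the knockout in either background. In parental cells edgeR called 0 of 56 (0% of all genes), with 5 at an unadjusted p below 0.05 (3.0% of all genes), and DESeq2 and limma-voom also called 0. Same-numbered libraries of the parental and parental knockout groups deviated together, however, with correlations of 0.658, 0.774 and 0.779 across genes, so the number was also used as a block. With blocks within each background 4 factors were lower in parental knockout cells and 0 higher (0.858% of all genes called, 0.429% in each direction). They were KLF13, KLF4, FOXO1 and FOXQ1, all of which were also lower in resistant than in parental cells. Both comparisons share the parental libraries, so neither is evidence for the other. The mitochondrial share of counts was higher in the knockout library of each numbered pair, at 7.75% and 10.7%, 5.34% and 6.54%, and 7.55% and 16.3%, and its part in these decreases was not tested.

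KLF13 fell in each numbered pair, from 63.9 to 32.8, from 113 to 57 and from 94.5 to 51.2 CPM (log2 difference -0.94 ± 0.17 with the replicate block, adjusted p = 0.0168, against 1 without it). KLF4 fell from 74.7 to 23.4, from 163 to 109 and from 46.8 to 16.3 CPM (-1.25 ± 0.23, adjusted p = 0.02). FOXO1 fell from 201 to 104, from 404 to 202 and from 162 to 53.5 CPM (-1.18 ± 0.24, adjusted p = 0.0329). Each library fell below its own partner, although the groups as a whole overlapped for KLF4 and FOXO1. FOXQ1 fell from 27.6 to 6.16, from 37.1 to 19.6 and from 10.6 to 5.34 CPM (-1.35 ± 0.28, adjusted p = 0.0492).

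A block fitted to the 6 parental-background libraries alone, added after the data were seen, called 9 of 52 factors, 7 lower and 2 higher, beside 7.58% of all genes (4.11% lower and 3.48% higher). It added KLF3, KLF12 and KLF5 to the decreases (log2 difference -0.64, -0.86 and -0.65, adjusted p = 0.00713, 0.00772 and 0.014). The 2 that rose were GATA3 and SOX4. GATA3, known from T cells and breast epithelium, went from 0.179, 0.576 and 0.518 CPM to 2.3, 1.61 and 1.95 CPM (log2 difference 2.22 ± 0.45, adjusted p = 0.0147), and SOX4 from 33.9, 47.4 and 41.1 to 57.8, 60.4 and 55.7 CPM (0.53 ± 0.12, adjusted p = 0.0263). All knockout libraries were above all controls for both. In the other forms of the fit these 5 did not pass. Of 9 blood cell markers 1, CD68, reached 1 CPM in each group, and their summed level was 31.8 to 95.5 CPM in parental, 24.1 to 76.9 in parental knockout, 11.0 to 15.1 in resistant and 14.6 to 21.8 CPM in resistant knockout libraries, with CD3E at 0 reads in parental and parental knockout cells.

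**Figure D4:**
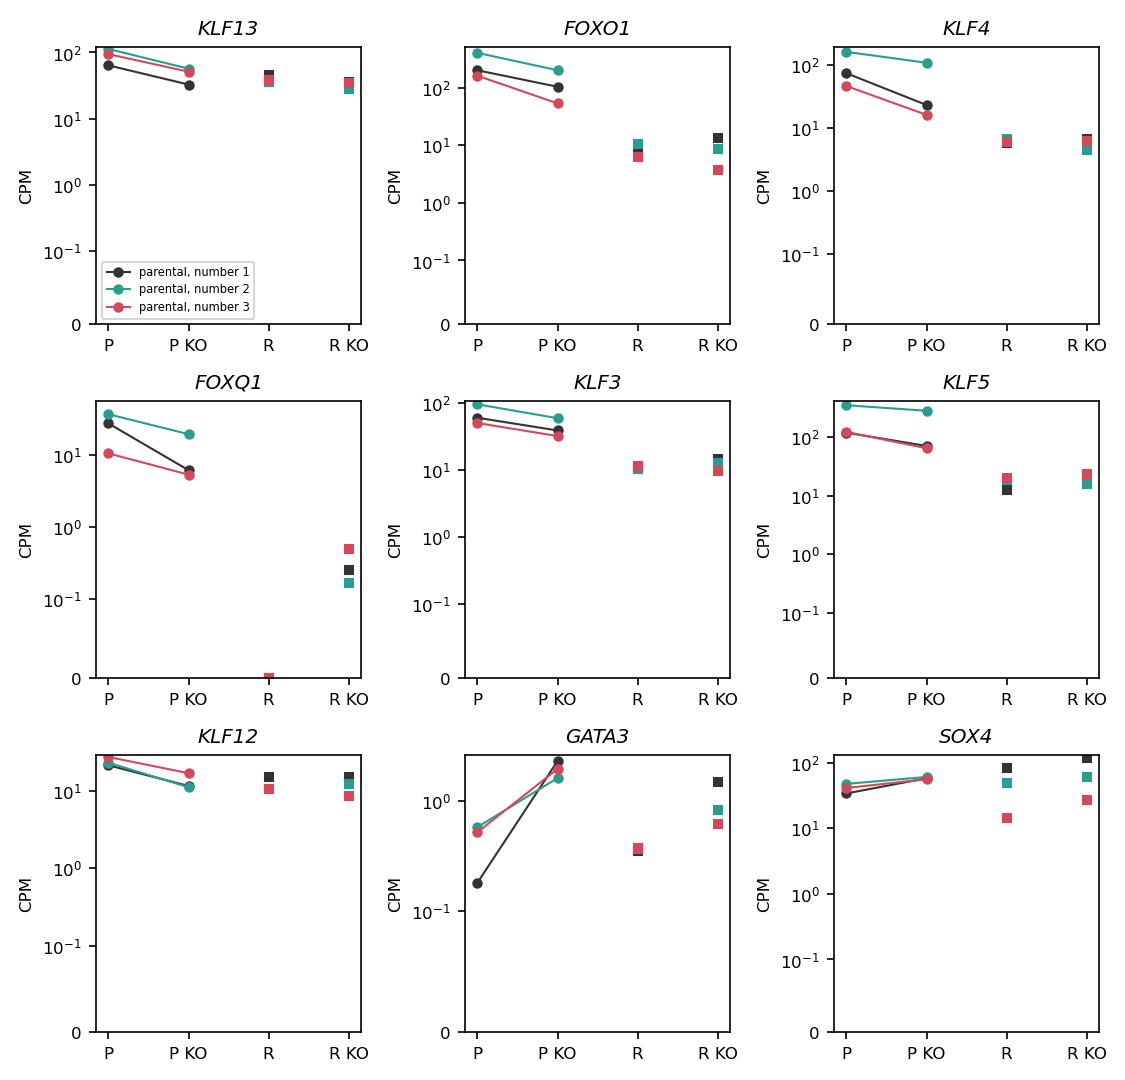
Levels in CPM (log scale above 0.1 CPM, linear down to 0) of the 9 factors called in parental cells by the replicate block on the parental libraries alone, in parental (P), parental knockout (P KO), resistant (R) and resistant knockout (R KO) libraries, with numbers 1, 2 and 3 in black, green and red. Lines join parental-background libraries of the same number: all lines fall for KLF13, FOXO1, KLF4, FOXQ1, KLF3, KLF5 and KLF12, and all rise for GATA3 and SOX4; resistant libraries are not joined because their numbers did not pair.

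In resistant cells edgeR called 0 of 56 factors for the knockout (0.212% of all genes), with 8 at an unadjusted p below 0.05 (7.95% of all genes). DESeq2 called 1, FOXQ1, and limma-voom 0. Libraries did not overlap for 13 of the 56 (15.2% of all genes). FOXQ1 had 0 reads in the resistant libraries and 5, 3 and 8 reads in the knockouts, at least 5.15-fold more (edgeR adjusted p = 0.31, DESeq2 adjusted p = 0.0409). FOXA3 held 0.525, 0.487 and 0.42 CPM against 2.62, 1.77 and 1.98 CPM in the knockouts, 4.45-fold more on the means (edgeR adjusted p = 0.437). FOXC1 held 12.3, 12.2 and 10.5 against 27, 17.8 and 21.4 CPM (log2 difference 0.92 ± 0.33, adjusted p = 0.463). GATA3 held 0.35, 0.366 and 0.368 against 1.48, 0.831 and 0.618 CPM (log2 difference 1.43 ± 0.54, adjusted p = 0.494), so its libraries were apart in both backgrounds.

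The difference between the knockout effects in resistant and parental cells was tested directly, and edgeR called 0 of 56 factors (0.0279% of all genes), with 6 at an unadjusted p below 0.05 (3.78% of all genes). DESeq2 called FOXQ1 (log2 difference of effects 6.10, adjusted p = 0.0232) and limma-voom 0. For FOXQ1 edgeR gave 6.70 ± 1.65 (adjusted p = 0.473), and its level fell with the knockout in parental cells while reads appeared in resistant cells. These fitted values rest on a group with 0 reads and are not measured sizes.

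Some of the factors that changed are neighbours on the genome. FOXQ1, FOXF2 and FOXC1 lie in a row on chromosome 6, with gaps of 74.8 and 214 kb, and all 3 were lower in resistant cells. Of the 7 other genes tested within 1 Mb, 1 was higher and 0 lower, beside 15.2% and 12.8% of all genes tested. Among knockout libraries FOXQ1 was again lower (log2 difference -5.08), while FOXF2 (-0.54) and FOXC1 (0.02) did not pass. FOXF1, FOXC2 and FOXL1 lie within a stretch of chromosome 16 with gaps of 51.4 and 6.64 kb. FOXF1 and FOXL1 were higher in resistant cells, and FOXC2 was below the filter with 3 reads in parental, 7 in parental knockout, 15 in resistant and 21 in resistant knockout libraries. Of the 15 other genes tested there, 2 were higher (COX4I1 and IRF8) and 0 lower, beside the same 15.2% and 12.8% of all genes.

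KLF5 and KLF12 lie 609 kb apart on chromosome 13 and were both lower. So were 2 of the 4 other genes tested around them (MZT1 and DIS3), beside 12.8% of all genes. Log2 differences were -1.41 for MZT1, -0.92 for DIS3, -1.07 for BORA and -1.06 for PIBF1, of which BORA and PIBF1 did not pass. That of KLF12 was of similar size (-0.99), and that of KLF5 larger (-3.51). Among knockout libraries KLF5 (-2.92) and DIS3 (-0.90) passed. KLF12 (-0.14), MZT1 (-0.79), BORA (-0.05) and PIBF1 (-0.72) did not pass there. SOX7 and GATA4, of different families and paired here after their values were seen, lie 946 kb apart on chromosome 8 and were both higher. Around that pair 6 of 25 other genes were higher and 3 lower, beside 15.2% and 12.8% of all genes tested. DNA copy number of these regions was not measured in these data.

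**Figure D5:**
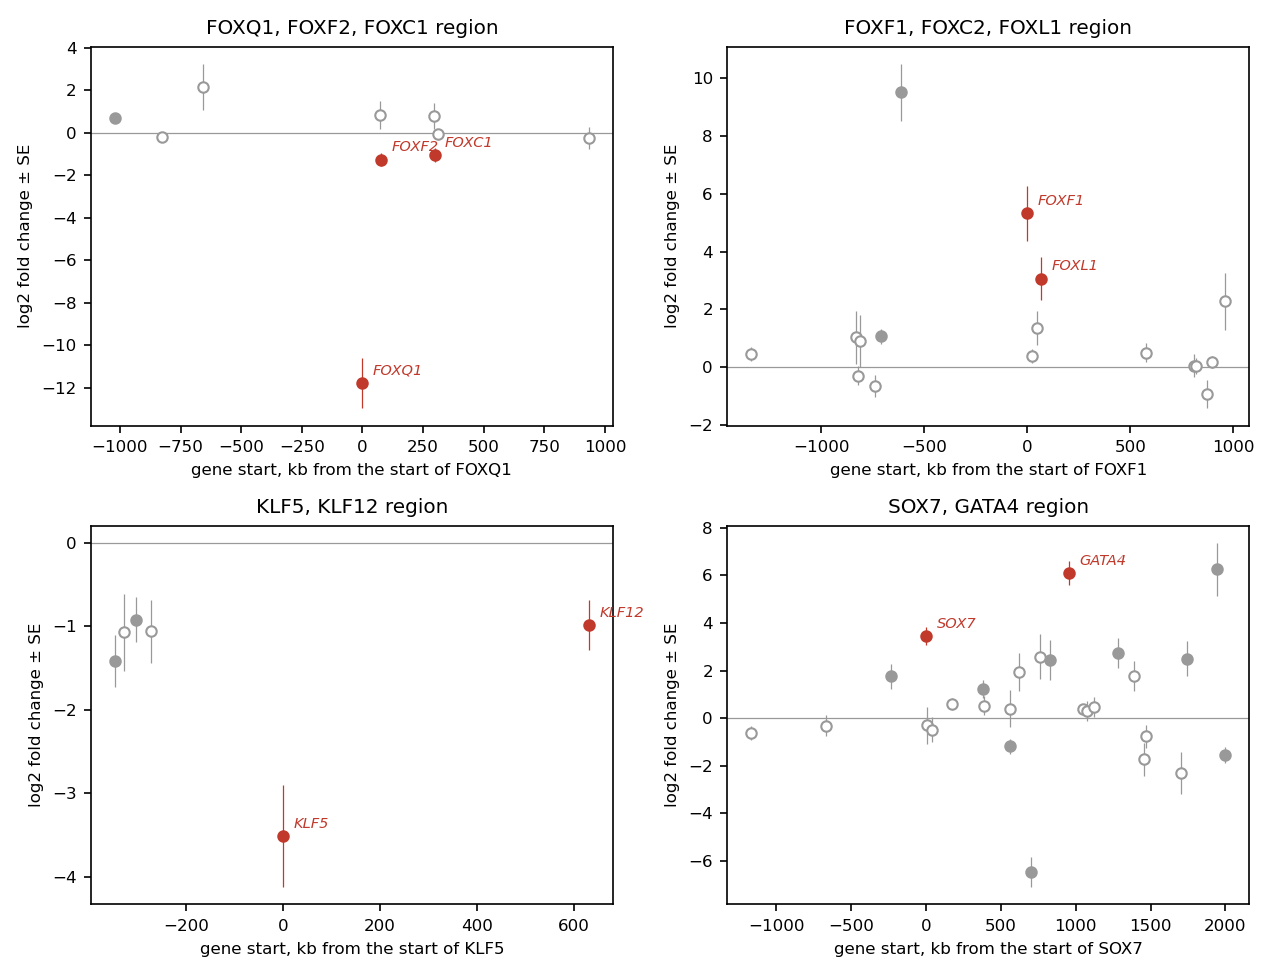
Log2 difference (± SE) between resistant and parental cells of every gene tested within 1 Mb of 4 groups of neighbouring factors, against the distance of the gene's start from that of the first factor in kb. Red points are the FOX, KLF, SOX or GATA genes, grey filled points other genes that passed and open points genes that did not; in the first panel the 3 FOX genes lie below 0 while the other genes lie near or above it.

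Related genes were read from 8 lists. In the SP family, the nearest relatives of KLF genes, 4 of 6 tested were lower in resistant cells and 1 higher (83.3% called, beside 28.0% of all genes, median log2 difference -1.05). SP3 went from 197 to 76.3 CPM (log2 difference -1.36 ± 0.25, adjusted p = 0.00187), SP2 fell by 1.44 and SP1 by 0.74, SP5 was left with 1 read, and SP6, a factor of teeth and skin, rose (1.88 ± 0.53, adjusted p = 0.02). Of 9 GATA cofactors 3 were lower and 0 higher (33.3% called, near the 28.0% of all genes), with the FOG protein gene ZFPM2 falling by 2.64 ± 0.39 (adjusted p = 0.000384), LMO2 by 1.72 and GATAD1 by 1.36. Of 10 POU and PAX genes 5 were higher and 0 lower (50% called, beside 28.0% of all genes). PAX2 had 0 reads in parental cells and 4.21 CPM in resistant cells, at least 71.1-fold more (adjusted p = 0.00118), and POU3F2 rose by 2.16 on the log2 scale. Of 5 endoderm partners of FOXA and GATA, ONECUT1 was higher (ratio 19, 95% exact counting interval 6.19 to 94.8) and HNF4G lower (-4.16 ± 0.48, adjusted p = 6.7e-05). That is 40% called, beside 28.0% of all genes.

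Genes known as FOXO targets did not move as a block: 2 of 16 were higher and 2 lower in resistant cells (25%, beside 28.0% of all genes). TXNIP, which inhibits thioredoxin, fell from a mean of 986 to 79 CPM (log2 difference -3.64 ± 1.15, adjusted p = 0.0322) and SOD2, mitochondrial superoxide dismutase, from 506 to 81.3 CPM (-2.64 ± 0.51, adjusted p = 0.00253). INSR and SESN1 rose by 1.35 and 1.04. Among genes that control AKT and FOXO, whose count as a list is not given here, PIK3CA fell by 0.89, and SGK1, a kinase that phosphorylates FOXO proteins, went from 4.28 to 205 CPM (log2 difference 5.57 ± 0.73, adjusted p = 0.000188). Of 14 FOXM1 targets only CDC25B passed (7.14%, beside 28.0% of all genes), falling by 2.38 ± 0.32 (adjusted p = 0.000227). Of 11 antisense or divergent noncoding partners tested, FOXD3-AS1 was higher, and SOX5-AS1 and KLF3-AS1 were lower by 2.57 and 2.02 (27.3% called, near the 28.0% of all genes). Reads of such genes and their partners cannot be told apart where counting by strand is not stated, which includes KLF3 and KLF3-AS1.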

How the data were processed

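RNA from 12 SKOV-3 libraries was analysed in 4 groups of 3, taken with their replicate numbers from the sample titles. Per the labels' protocols, poly(A) RNA was made into libraries with a directional kit. The authors deposited raw counts for each gene, with no normalization. The tools were featureCounts 2.0.1, STAR 2.7.10a and Trim Galore 0.6.10 with build GRCh38, per the submitters' processing notes. Annotation, use of strand and treatment of multiply mapped reads were not given in the sources used here. Another copy of the table held equal values and was not used, and 2 columns with a 1-letter misspelling of the resistant line were matched by the rest of their name. Columns of both groups without the knockout carry the letters NT, which were not interpreted here.

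Genes were filtered with filterByExpr and scaled with TMM in edgeR 4.0.16 (R 4.3.3), which kept 17947 genes, and 5 contrasts were tested in 1 quasi-likelihood fit (robust) over all libraries, with Benjamini-Hochberg adjustment over all genes tested and a threshold of 0.05. Every adjusted p comes from this test unless another is named. CPM use the effective library size; coordinates and exon lengths come from GENCODE 29 and promoters from RefSeq. Against 0 reads, folds are lower bounds against 3 counts over the group, and with 1 to 3 reads a ratio is given. Bounds and intervals cover counting error only, since reads carry no molecular identifiers. No pair of libraries agreed within sampling noise. In counts simulated for resistant against parental cells (16180 genes), 78 of 100 genes changed 4-fold and 7 of 100 changed 2-fold were recovered. No other gene was changed in that simulation, while 28.0% of all genes passed in the real comparison, so these shares do not carry over.

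The factors and lists were chosen with earlier results of these data known. Values are given per library for the 24 factors with the largest difference among those that passed with at least 1 CPM and no overlap; factors called for the knockout, the 3 most abundant per family, neighbours within 1 Mb and up to 4 passing genes of each related list are also named. The list of genes that control AKT and FOXO is not reported in full here. SOX18, FOXO3, FOXO4, FOXA1, KLF6, KLF10, FOXC2 and SOX2 are named beside them to complete their groups. Alternatives were other scalings and filters, DESeq2 1.42.0, limma-voom (limma 3.58.1), the compared libraries alone, replicate blocks and leaving out libraries. Numbers paired the parental and parental knockout libraries (correlations of deviations from group means 0.658, 0.774 and 0.779).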

Additional observations from a re-analysis of the deposited data

How the results depend on the processing

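No factor that passed in resistant against parental cells, or among knockouts, changed sign under any alternative run. Of the 28 factors called in resistant against parental cells, 16 kept the call under all alternatives; of the 19 among knockouts, 16 did. The number called ran from 16 to 30 when 1 library was left out (28 with all), lowest without parental library 2, and from 16 to 19 among knockouts. SOX15 lost its call in 13 alternatives, FOXK1 in 11, FOXA2 and KLF12 in 5 each, and FOXC1 and KLF11 in 4 each. FOXO6 and FOXK2 lost theirs in 3 each, FOXA3, FOXJ3 and FOXP1 in 2 each, and FOXF2 in 1. Among knockouts FOXD1 lost its call in 7 alternatives, FOXJ3 in 6 and FOXE1 in 1. Library size alone moved the median log2 difference of all genes among knockouts from -0.00 to 0.15 and the genes called from 2445 higher and 1836 lower to 2928 and 1368; KLF counts did not change.

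For the knockout in parental cells the count of 0 became 1 with a filter of 1 count (GATA4, 11 reads against 0), 4 with the replicate block within backgrounds and 9 with the block on the parental libraries alone. For the knockout in resistant cells it became 1 with that filter, 3 with the replicate block within backgrounds (FOXQ1, FOXA3 and FOXC1, all higher, beside 5.23% of all genes) and 1 with DESeq2. For the difference of the knockout effects it became 1 with that filter, 1 with the block within backgrounds (1.53% of all genes) and 1 with DESeq2, each time FOXQ1. Leaving out any 1 library left these 3 counts at 0. Resistant libraries of the same number correlated at 0.569, -0.186 and 0.639 with their knockouts, so the numbers were not taken to pair them. A block over all 12 libraries called 30 factors in resistant against parental cells, 19 among knockouts and 0 for the knockout.

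At 3 libraries per group a change of 2-fold can be missed. A factor that did not pass is not shown to be equal between groups.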

Other observations

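Some factors varied with the replicate number. FOXM1 was highest in library 3 of all 4 groups, at 92.9, 89.4, 77.8 and 113 CPM, against 13.3 to 48.4 CPM in the other 8 libraries. FOXD1 stood at 64.8 and 110 CPM in library 3 of resistant and resistant knockout cells, against 12 to 25.8 CPM in the other 4 libraries of those groups. SOX4 went the other way there, at 14.3 and 27.2 CPM in library 3 against 49.7 to 118 CPM in the other 4. These patterns were noticed in the data and were not tested.

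The SP6 gene stood at 4.61 CPM in resistant and 15.9 CPM in resistant knockout cells, and POU3F3 at 0.488 and 3.98 CPM. Neither passed edgeR's test for the knockout in resistant cells.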
